A study of Mus musculus with 2 samples.

Results

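Genes of transforming growth factor β (TGF-β) signaling were compared between 2 arrays of TCRαβ+CD8αα+ intraepithelial lymphocytes (IELs), the T cells with a CD8αα homodimer that reside in the epithelium of the small intestine. The 10 genes were *Tgfb1*, *Tgfb3*, *Tgfbr1*, *Tgfbr2*, *Smad2*, *Smad3*, *Smad4*, *Smad7*, *Ski* and *Skil*, out of 20892 named genes on the array, and were taken through the RefSeq accession of each probe. All 10 genes had a probe, 15 probes in all, and all 15 were well above background on both arrays. One array held RNA of Rbpjf/f mice (Control) and the other RNA of CD4-Cre Rbpjf/f mice (RFF4), both C57BL/6, of pooled sexes and 8 to 12 weeks old. *Rbpj* encodes the DNA-binding protein through which Notch receptors act, and CD4-Cre deletes a floxed gene in T-lineage cells from the double-positive thymocyte stage. The labels name no Cre for the control, whereas the study's text describes Cre-carrying controls with unfloxed *Rbpj*. The cells were sorted as TCRβ+, CD8α+, TCRγδ-, CD4- and CD8β-, and RNA was pooled over several isolations to 1 sample per genotype. With 1 array per group, no difference between the genotypes has a replicate check, and neither a test nor a p-value across animals exists.

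TGF-β ligands are secreted in a latent form and, once released, bind the type II receptor, which recruits and phosphorylates the type I receptor. The type I receptor phosphorylates SMAD2 and SMAD3, which enter the nucleus with SMAD4, whereas SMAD7 inhibits the receptor and SKI and SKIL repress transcription on bound SMADs. In the IEL compartment TGF-β is known for its part in the survival of thymic IEL precursors and in the expression of CD8α and of the integrin CD103.

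Levels are log2 signals relative to the 75th percentile of the same array, so that 0 is the level of a spot at that percentile, and a difference is the array labelled RFF4 minus Control. The level of a probe was compared only with that of the same probe on the other array, since probes differ in brightness. Spots of probes printed 10 times had an SD of 0.12 on the Control array and 0.11 on the other, which makes the technical SD of a difference 0.16 and 2 of them 0.32, or 1.25-fold. This error covers spots, not animals or isolations. Relative to the 75th percentile, *Rbpj* itself was not lower on the array labelled RFF4. Its brightest probe was at 1.96 on the Control array and 2.28 on the other, a difference of 0.32, and the other *Rbpj* probe differed by 0.82. The direction depends on the scaling, since the brightest probe lay at -0.80 with the spike-in controls of the arrays set equal. Where its probes lie relative to the floxed exons was not examined here, so these values do not check the deletion, and the second array is called the array labelled RFF4 throughout.

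*Tgfb3* was the lowest of the 10 genes relative to Control and *Smad3* the highest, and both were past 2-fold. Of the 10 genes, 7 were lower and 3 higher, with a median difference of -0.17 beside -0.01 over all 13515 genes with a difference. Past 2-fold, 1 of the 10 genes was lower and 1 was higher, where 5.05% of all genes were lower and 12.3% higher by that much. Past 2 technical SD, 4 genes were lower (*Tgfb3*, *Tgfbr1*, *Smad2* and *Skil*) and 3 higher (*Smad3*, *Ski* and *Tgfbr2*), where 28.1% of all genes were lower and 29.7% higher. With only 10 genes, these shares lie near those of all genes. The values of *Tgfb1*, *Smad4* and *Smad7* lay within 2 technical SD, although median scaling took *Smad4* (-0.36) and *Smad7* (-0.34) past them, for 6 lower genes in place of 4. Over the repeated probes dimmer than their median, 2 technical SD were 0.44, which *Smad2*, below that median on both arrays, and *Tgfbr1*, below it on the array labelled RFF4, did not pass.

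**Figure D1:**
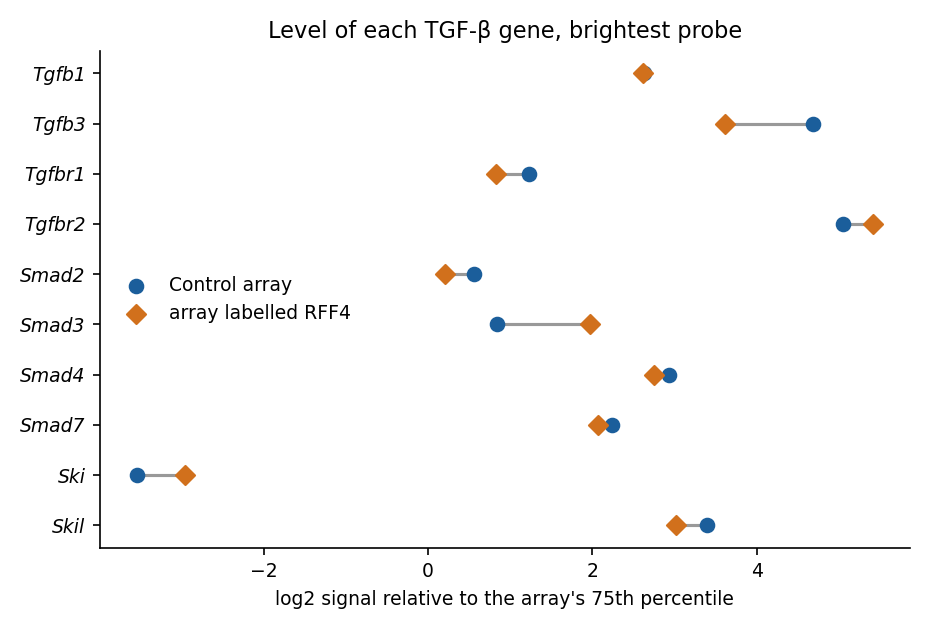
Level of each TGF-β gene on the Control array (circle) and the array labelled RFF4 (diamond), as log2 signal relative to the 75th percentile of the array, from the brightest probe of the gene; 1 array per group, so no error bar is drawn. The widest gaps are those of *Tgfb3*, at 4.69 and 3.62, and *Smad3*, at 0.84 and 1.98, which run in opposite directions, and positions are to be compared within a row only.

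Before scaling, every one of the 10 genes gave less signal on the array labelled RFF4, from 21.2% of the Control signal for *Tgfb3* to 97.9% for *Smad3*. The 75th percentile itself was 1.17 log2 units lower there (8.99 and 7.82). The 8 spike-in controls, RNAs added in fixed amounts during labelling, differed by only -0.05 between the arrays. If the spike-ins rather than the 75th percentile are set equal, every gene falls by a further 1.12, which places *Smad3* at 0.01 and *Tgfb3* at -2.20 and turns *Tgfbr2* to -0.76 and *Ski* to -0.54. The statements below are therefore relative to the bulk of the genes, and the spacing between genes is the same under both scalings.

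Among the ligands, the *Tgfb3* transcript (NM_009368) was lower and the *Tgfb1* transcript was not apart. *Tgfb3* encodes TGF-β3, which shares its receptors with TGF-β1. Its probe was printed 10 times on each array, with a mean level of 4.69 ± 0.05 (SD over 10 spots) on the Control array and 3.62 ± 0.06 on the other. The spots ranged from 4.58 to 4.74 and from 3.52 to 3.68, so that no spot of one array overlapped the other. The difference of -1.07, a 2.10-fold lower level, corresponded to -6.61 technical SD and ranked 484 from the lowest among the 12957 genes measured above background in both pools. *Tgfb1*, which encodes the main TGF-β of lymphocytes, had 10 spots between 2.53 and 2.69 on the Control array and between 2.54 and 2.69 on the other. Its spots overlapped, and the difference was -0.02. The difference of *Tgfb1* thus lay 1.05 above that of *Tgfb3*, a gap that no scaling by a constant can alter. *Tgfb2*, which encodes the other ligand of this group, was not well above background on either array.

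Among the receptors, the values of *Tgfbr2* and *Tgfbr1* lay on opposite sides of 0 relative to the 75th percentile. *Tgfbr2*, which encodes the ligand-binding type II receptor, stood at 5.05 on the Control array and 5.41 on the other, and its brightest probe was 0.36 higher, or 2.22 technical SD. Its other probe, at 1.42 and 1.81, differed by 0.39, so both probes of the gene were higher by about the same amount. The brightest probe fell within 2 technical SD after median scaling (0.19), quantile normalization (0.22), cyclic loess (0.20) and normexp background correction (0.19). *Tgfbr1*, which encodes the type I receptor kinase, stood at 1.23 and 0.82, a difference of -0.41. A dimmer *Tgfbr1* probe, at -2.42 and -2.26, differed by 0.17 in the other direction, so the direction of *Tgfbr1* depends on the probe. Cyclic loess put the brightest *Tgfbr1* probe at -0.29 and the mean of its probes lay at -0.12, both within 2 technical SD. The 2 receptors lay 0.77 apart by their brightest probes.

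The receptor-regulated SMADs also lay on opposite sides. *Smad3* (NM_016769), which encodes the DNA-binding effector of the pathway, stood at 0.84 on the Control array and 1.98 on the other, a 2.20-fold higher level with a difference of 1.14. This was 7.03 technical SD and ranked 1234 from the highest among the 12957 genes. A second *Smad3* probe differed by 1.66 in the same direction. That probe was dim, at -5.39 and -3.74, near the lowest level the scanner software marked as above background. *Smad2*, which encodes the second receptor-regulated SMAD of this branch, stood at 0.56 and 0.21, a difference of -0.35, just past 2 technical SD, and within them after quantile normalization (-0.32) and cyclic loess (-0.22). The differences of *Smad3* and *Smad2* were 1.49 apart. The shared partner *Smad4* stood at 2.93 and 2.75, a difference of -0.18 that lies within 2 technical SD, and its other probe differed by -0.50, which put the mean of both at -0.34, past 2 technical SD. The values of *Smad3* were over 2-fold apart in the scaling used here but not under every processing, with 0.96 after median scaling and 0.95 after another background correction. *Tgfb3* kept over 2-fold under all 10 alternatives, between -1.07 and -2.20, but several of these could hardly change it. With 1 probe above background on both arrays, it could not change under the mean of all probes, both-array filtering or no filter. None of its spots was an outlier to add back, and the authors' table (-1.08) differed from the values here by a constant.

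The sequences here are the 250 bases upstream of the annotated start of *Smad3* and *Tgfbr2*, the 2 of the 10 genes that had a pair of probes with both higher, printed 5′ to 3′ from RefSeq on GRCm38.p6. Capitals mark TGGGAA, the core of the RBPJ site, which begins at position -219 from the start of *Smad3*.
Smad3 promoter, minus strand, chr9:63757995-63758244: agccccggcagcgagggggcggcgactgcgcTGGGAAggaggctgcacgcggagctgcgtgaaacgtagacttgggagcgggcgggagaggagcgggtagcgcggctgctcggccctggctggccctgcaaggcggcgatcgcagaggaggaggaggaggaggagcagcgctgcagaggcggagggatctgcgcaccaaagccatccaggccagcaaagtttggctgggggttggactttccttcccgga
Tgfbr2 promoter, minus strand, chr9:116175364-116175613: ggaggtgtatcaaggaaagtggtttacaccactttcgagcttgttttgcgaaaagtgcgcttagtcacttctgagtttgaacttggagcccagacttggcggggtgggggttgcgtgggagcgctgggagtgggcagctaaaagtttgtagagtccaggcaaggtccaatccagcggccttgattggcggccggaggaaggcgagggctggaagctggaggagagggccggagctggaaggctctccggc
Windows from 250 bases before to 50 after the start were examined for 5 of the 10 genes (6 windows), namely *Tgfb1*, *Tgfbr1*, *Tgfbr2*, *Smad3* and *Ski*. The windows were searched on both strands for TGGGAA, for the SMAD element CAGACA and for the SMAD palindrome GTCTAGAC, whose letters AGAC are shared with the element. TGGGAA was found in 1 of these genes (*Smad3*), CAGACA in 1 (a second start of *Tgfbr1*), and the palindrome in 0. Of 32851 windows of the same length, 25.6% held TGGGAA on either strand, 21.0% held CAGACA and 0.213% held the palindrome. A match is a description of these letters only.

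Among the inhibitors, none of the values was past 2-fold. *Smad7*, which encodes the inhibitory SMAD and is itself induced by TGF-β, stood at 2.24 on the Control array and 2.07 on the other, a difference of -0.17 within 2 technical SD. *Skil*, which encodes the SKI-like corepressor SnoN, had 10 spots on the Control array between 3.25 and 3.46. On the array labelled RFF4 its 8 spots that were not outliers lay between 2.96 and 3.06. The spots did not overlap, and the difference was -0.37, while a second *Skil* probe differed by -0.11 and the mean of both by -0.24, within 2 technical SD. *Ski*, which encodes the founding member of these corepressors, stood at -3.54 and -2.96, a difference of 0.59. Its signals were among the dimmest eighth of genes, where the median difference was 0.48, so the value of *Ski* stood near that of other genes of its brightness. *Ski* and *Skil* differed in opposite directions, 0.96 apart.

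**Figure D2:**
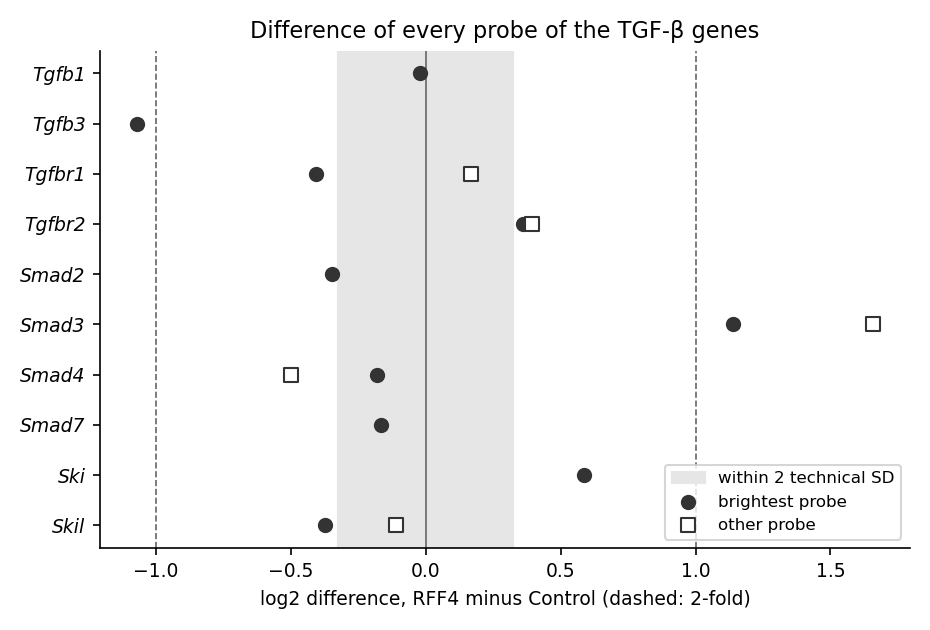
Log2 difference (array labelled RFF4 minus Control) of all 15 probes of the TGF-β genes; filled circles are the brightest probe of a gene, open squares other probes, the band 2 technical SD around 0 and the dashed lines 2-fold. Only the *Tgfb3* probe and the 2 *Smad3* probes lie past 2-fold, and the probes of *Tgfbr1* lie on both sides of 0.

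**Figure D3:**
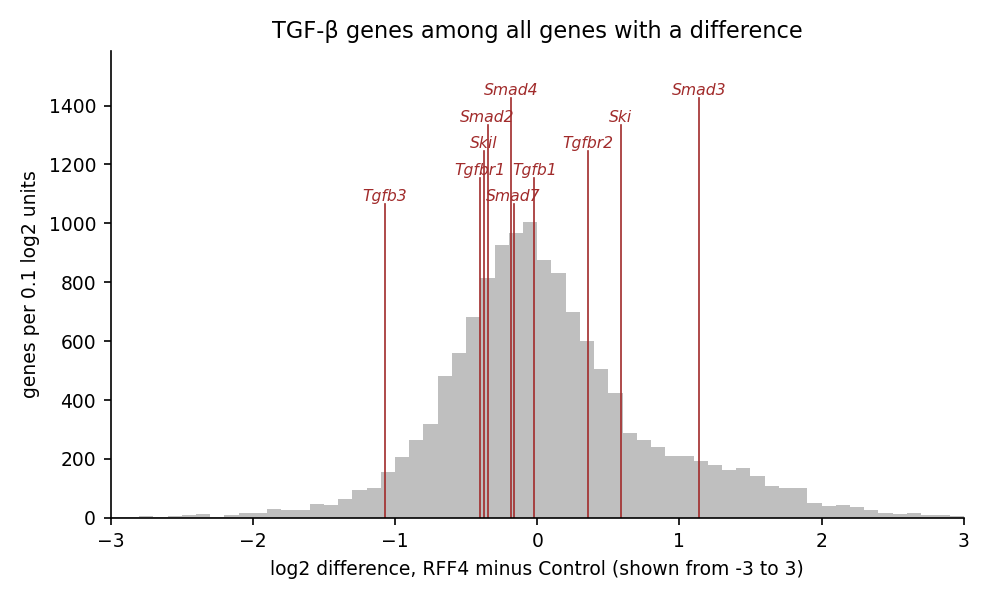
Number of genes per 0.1 log2 units of difference for the 13515 genes with a difference, drawn between -3 and 3, with a line at each TGF-β gene. *Tgfb3* stands in the lower tail and *Smad3* in the upper shoulder, while the other 8 genes lie between -0.41 and 0.59.

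The rest of the pathway was described with 70 further genes, of which 55 gave a difference (54 well above background on both arrays, and *Foxh1* as a bound) and 14 were below background on both arrays. Of the 55, 19 were higher and 36 lower, with a median of -0.25. Past 2-fold, 6 (10.9%) were higher and 1 (1.82%) lower, beside the 12.3% and 5.05% of all genes. Of those 6, 3 stayed past 2-fold under median scaling and 3 under normexp, 5 under quantile normalization, cyclic loess and the authors' table, which each lost *Itgb6*, and 0 with the spike-ins set equal. Among 11 other ligands and activating proteins, *Bmp7*, which encodes a bone morphogenetic protein (BMP), was at 3.06 on the Control array and 1.79 on the other, a difference of -1.27. Another BMP gene, *Bmp2*, differed by 1.32, from -3.72 to -2.41. *Thbs1* and *Itgb6*, which encode thrombospondin 1 and an integrin chain that both release active TGF-β from its latent form, differed by 1.26 and 1.01, both from dim signals at or below -4.52 on the Control array. *Bmp2*, *Thbs1* and *Itgb6* were among the dimmest eighth of genes, of which 27.0% were past 2-fold higher. Of 10 other genes of receptors and receptor-binding proteins, the median was 0.69 (-0.43 and 2 of 10 higher with the spike-ins set equal). Among them *Acvr1* and *Bmpr1a*, both type I receptors that bind BMPs, differed by 1.17 and 1.13. Both lay in the next dimmest eighth of genes, of which 19.6% were past 2-fold higher. The lists of nuclear partners, with 13 of 16 lower and a median of -0.34, and of the TAK1 branch, with 4 of 5 lower and a median of -0.25, held none past 2-fold.

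Among 12 other SMADs and genes of SMAD turnover, 9 were lower and the median was -0.27. The exception past 2-fold was *Smad6*, which encodes the SMAD that inhibits BMP receptors, at -4.89 on the Control array and -3.32 on the other, a difference of 1.56 from a probe in the same dimmest eighth. 3 ubiquitin ligase genes that limit SMADs or their corepressors were the lowest of this list, a choice made after their values were seen. They were *Smurf2* with a difference of -0.83, *Rnf111* with -0.87 and *Nedd4l* with -0.94, each short of 2-fold, and a second *Nedd4l* probe differed by -0.15.

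Genes that TGF-β is known to induce were higher in most cases. Of 9 with a difference, 7 were higher and 2 lower, and the median was 1.01. Past 2-fold, 5 (55.6%, beside 12.3% of all genes) were higher and none lower, beside 5.05% of all genes. The 5 were *Tgfbi*, an extracellular matrix gene at 0.57 on the Control array and 2.40 on the other (difference 1.84), the cell cycle inhibitor genes *Cdkn2b* (1.57) and *Cdkn1a* (1.01), *Id1* (1.46), which encodes an inhibitor of helix-loop-helix factors and is also induced by BMPs, and *Foxp3* (1.20), the regulatory T cell factor gene, from a probe in the dimmest eighth at -5.02. Of these 5, 4 stayed past 2-fold under median scaling, without *Cdkn1a*, and 3 under normexp, without *Cdkn1a* and *Foxp3*. Setting the spike-ins equal left 4 of the 9 higher and 0 past 2-fold, and turned the median to -0.12. *Cd8a*, whose product was used for the sort, was at 6.24 and 6.18, a difference of -0.07. The other lower gene, *Pmepa1*, differed by -0.47, past 2 technical SD, and its other probe by -0.49. No probe was matched to *Itgae*, which encodes the CD103 chain. Of 11 genes that TGF-β is known to repress in T cells, 10 were also higher, with a median of 0.30 (2 of 11 higher, 0 past 2-fold and -0.83 with the spike-ins set equal). Past 2-fold were 2 of them (18.2%, beside the 12.3% of all genes), *Klf2*, which encodes a factor of T cell trafficking, at 1.61 and 2.86 (difference 1.25), and *Il2*, the gene of interleukin 2, at -3.93 and -2.12 (1.81), in the dimmest eighth where 27.0% of genes were that much higher. Both lists thus lay above 0, relative to the 75th percentile, although TGF-β is known to move them in opposite directions.

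Markers of cell types were compared between the arrays as well. All 18 epithelial markers were higher on the array labelled RFF4, 15 of them past 2-fold, with a median of 1.51, and their summed scaled signal was 246 and 740. With the spike-ins set equal, 13 of the 18 were still higher, beside 1 of 13 markers of T cells and natural IELs, all 5 Paneth and goblet cell markers and 7 of 11 macrophage and dendritic cell markers (median 0.33). The 5 Paneth and goblet cell markers were all higher as well (median 1.69, summed signal 112 and 383), as were the 11 macrophage and dendritic cell markers well above background on both arrays (median 1.45, summed signal of the list 76.4 and 170). *C1qa* and *C1qc* were well above background on the array labelled RFF4 alone, and *Fcgr1* on the Control array alone. The 13 markers of T cells and natural IELs were well above background on both arrays, with 8 higher, 5 lower and a median of 0.20. Past 2-fold, 1 of them (7.69%, beside 12.3% of all genes) was higher and 0 lower. It was *Cd2*, at 2.96 on the Control array and 5.18 on the other, a difference of 2.22. Many of the listed response genes and *Smad3*, *Tgfbr2* and *Tgfbi* are expressed by epithelial or myeloid cells too. The sort was gated on TCRβ and CD8α, and all 18 epithelial markers were well above background on both arrays. The part of epithelial or myeloid cells in the values above was not tested. In RNA of a pool, more cells of a type cannot be told apart from more RNA per cell.

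**Figure D4:**
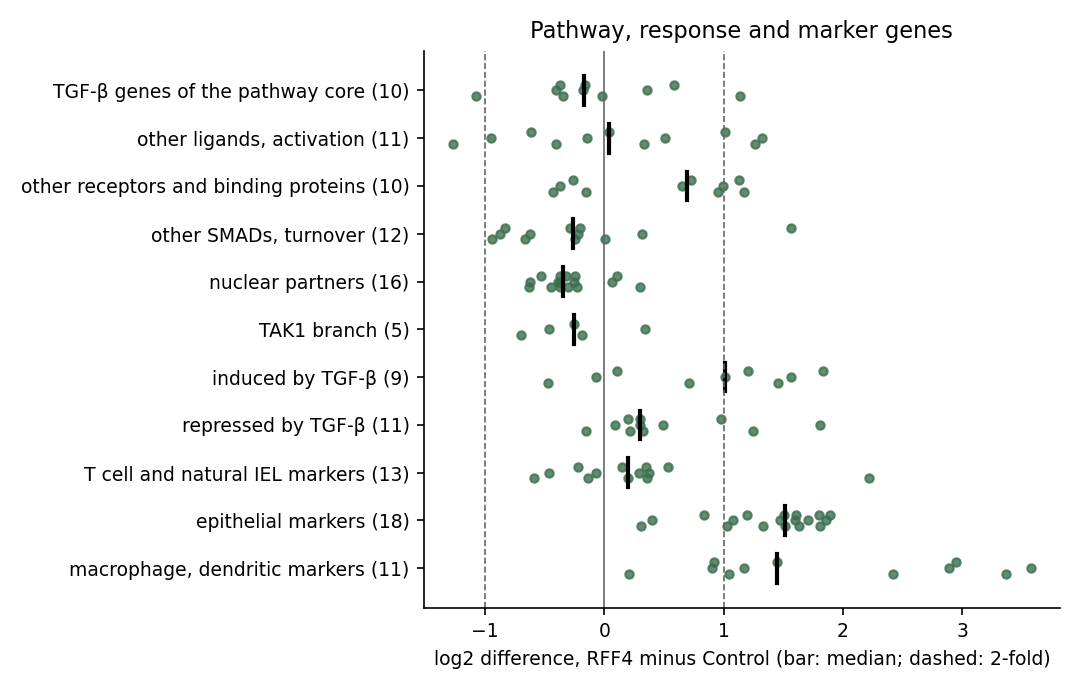
Log2 difference (array labelled RFF4 minus Control) of each gene well above background on both arrays, by list, with the number of genes in brackets; a bar marks the median, and the dashed lines 2-fold. The 10 TGF-β genes spread on both sides of 0 with a median of -0.17, while all 18 epithelial and 11 macrophage and dendritic markers drawn lie above 0 in this scaling (13 of 18 and 7 of 11 with the spike-ins set equal).

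**Figure D5:**
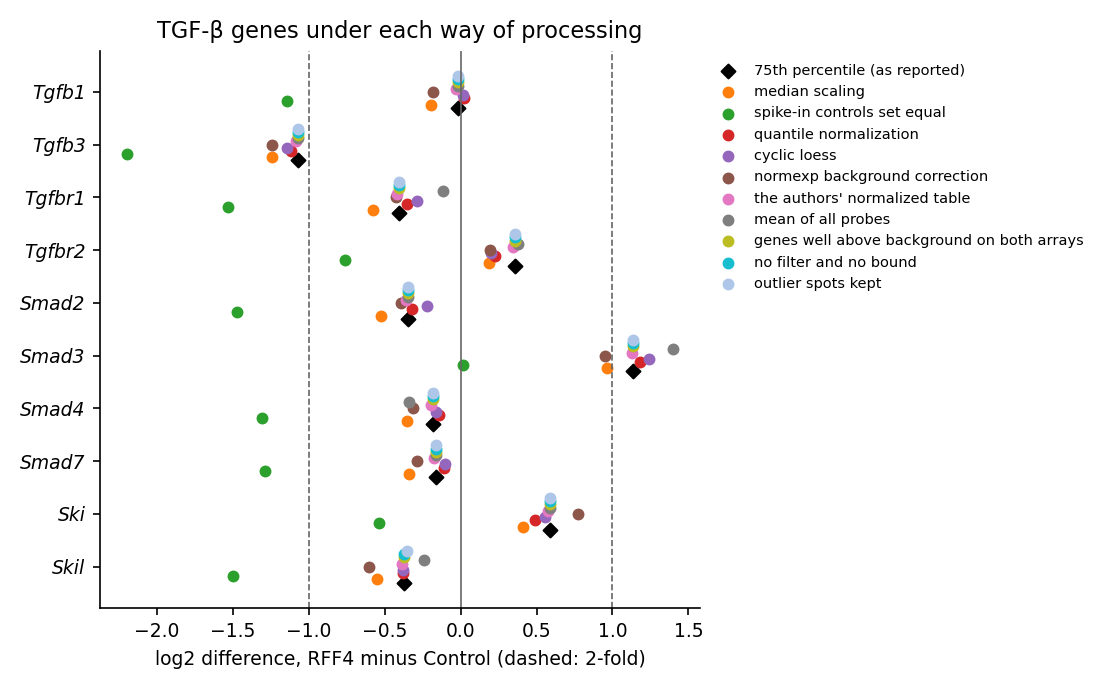
Log2 difference (array labelled RFF4 minus Control) of the TGF-β genes under the processing reported (black diamond) and 10 alternatives (circles); the dashed lines mark 2-fold. Setting the spike-in controls equal moves every gene by the same amount, whereas the other alternatives leave *Tgfb3* between -1.07 and -1.25 and *Smad3* between 0.95 and 1.40.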

How the data were processed

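Gene expression was measured on 2 Agilent SurePrint G3 mouse arrays of 1 color, 1 per genotype, on the same slide and in the same scan. The authors deposited the output of Agilent Feature Extraction 10.7.1.1, in which the intensity of each spot is background-subtracted, on a linear scale and not normalized between arrays, and a table of log2 values, centered per probe, that the study's methods ascribe to GeneSpring without settings. Each array held 62976 spots, 59305 for genes, of which 33915 (57.2%) and 29494 (49.7%) were well above background on Control and RFF4, with a median signal of 9.47 and 5.78 times background. No spot was saturated (0 on each array).

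The log2 of the deposited intensity was centered on the 75th percentile of all gene spots of its array. Control and outlier spots (102 and 131) were left out, and spots of a probe were averaged. Probes with 50% or more of their spots well above background were treated as detected, and a gene was represented by its brightest probe. A gene seen on 1 array only was given a bound, from the lowest signal well above background on the other. Of 20892 genes, 14226 were well above background on at least 1 array and 13515 had a difference. Accessions were named through RefSeq symbols of GRCm38.p6, which named 27521 of 55679 probes.

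The genes and lists were chosen with earlier results of these data known. All 10 genes are named, as are other pathway and response genes past 2-fold, *Cd8a* and *Rbpj*. The technical SD came from probes printed 10 times and at least 50% well above background (279 and 265). Alternatives were median scaling, spike-in scaling, quantile normalization, cyclic loess, normexp with an offset of 50, the authors' table, the mean of all probes, both-array filtering, no filter, and outliers kept. The steps were tested on simulated data. Python 3.11.15, numpy 2.4.6, pandas 2.3.3, matplotlib 3.10.9, R 4.3.3 and limma 3.58.1 were used.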

Additional observations from a re-analysis of the deposited data

How the results depend on the processing

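With 1 array per group, no replicate could be left out. No paired analysis was possible because each group has 1 array. Depth is limited by signal over background, which is low for dim genes such as *Ski*, *Smad6* and *Foxp3*. A value counted as unmoved when it changed by less than the technical SD of 0.16. By that measure all 10 TGF-β genes were unmoved under quantile normalization and cyclic loess. Values near 2 technical SD still crossed it under 1 or both of these, as given beside *Tgfbr2*, *Tgfbr1* and *Smad2*. Both-array filtering and no filter could not move the 10 genes, since each passed the filter on either array. The authors' table shifted them all by the same small constant. Keeping outliers could hardly move any but *Skil* (-0.36), the only one with spots left out. Of the 10 genes, 8 were unmoved under the mean of all probes, which cannot change a gene with 1 probe, and 5 under normexp.

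Median scaling moved the median of all genes to -0.18, that of the TGF-β genes to -0.35 and that of the other pathway genes to -0.42. The medians of the induced and repressed genes moved to 0.84 and 0.12, and *Rbpj* to 0.15. Under it 0 TGF-β genes were past 2-fold higher, beside 9.68% of all genes. With the spike-in controls set equal, the median of all genes was -1.10, and 56.9% of all genes were past 2-fold lower and 1.39% higher. Of the TGF-β genes, 7 were then past 2-fold lower and 0 higher, and their median was -1.30. Past 2 technical SD, 9 were lower and 0 higher, a count for which the share of all genes was not computed in this setting. The same setting gave -1.37 for the other pathway genes, -0.12 for the induced genes, which turned their direction, -0.83 for the repressed genes, -0.80 for *Rbpj*, -0.11 for *Cdkn1a* and -0.11 for *Itgb6*. Cyclic loess left 2 genes past 2 technical SD lower. Normexp left 0 TGF-β genes past 2-fold higher, beside 9.22% of all genes, and gave 0.82 for the induced genes. Averaging a gene's probes put *Rbpj* at 0.57. The spike-in and median scalings shift all genes by a constant, and the cause of the other changes was not tested.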

Other observations

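The markers of the T cells that the sort was set to remove gave mixed values. *Cd40lg* was below background on both arrays and *Cd8b1* was well above background on the Control array only. The brightest *Cd4* probe was at 1.67 on the Control array and 1.80 on the other while another *Cd4* probe differed by -0.41, so its direction depends on the probe, and *Ctla4* differed by -1.01. Of 5 B and plasma cell markers with a difference, 4 were past 2-fold higher with a median of 1.68 (3 higher and a median of 0.55 with the spike-ins set equal), while *Cd79a* and *Pax5* were below background on both arrays. Of 4 fibroblast markers, 3 were higher, with a median of 1.18 (2 higher and 0.05 with the spike-ins set equal). Of the 2 endothelial markers with a difference, 1 was past 2-fold higher and 1 past 2-fold lower, and *Cdh5* was below background on both arrays. The cause of these values was not tested.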
